A study of Drosophila melanogaster with 2 samples.

Results

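The genes examined were the circadian clock genes per, tim, Clk, cyc, vri, Pdp1 and cwo, together with curled (cu), 8 of the 13945 protein-coding genes annotated on the 6 chromosomes that hold peaks. They were selected by symbol in the dm6 annotation with signals and counts of these peak lists already known, so the signals and counts are given as descriptions and were not tested. A peak belonged to a gene when its summit, the position of highest signal, lay in the gene body or within 5 kb on either side, the gene window. By this rule the windows held 14 of the 3388 peaks that the authors selected by the irreproducible discovery rate (the IDR set), which is 0.413% of them.

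The assay was ChIP-seq, in which an anti-GFP antibody pulled down D1 with its DNA, in whole Drosophila melanogaster pupae with an age label of 24 hours. The animals carried D1 with GFP at its C-terminal end as a stable transgene, and all animals of the series carried it. There were 2 biological replicates of 1 group and no second condition. The sources used here do not give the promoter that drives the transgene, the number of animals per replicate or the time of day of collection, and whole animals mix all cell types. The authors called 30000 peaks in each replicate and 30000 in both replicates pooled, a fixed length that is no count of bound sites, and read depth is unknown. A peak's signal is the authors' own value on a scale not given in the sources used here. Ranks are within a list, where rank 1 is the highest. Differences between the replicates use the values of their 2 lists without scaling. The median signal was 31.4 in the list of replicate 1 and 38.7 in that of replicate 2, so a difference may reflect the lists.

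The fly clock is a feedback loop of transcription. The activators Clock (Clk) and Cycle (cyc) form a heterodimer that binds E-box DNA and switches on period (per) and timeless (tim), whose proteins return to the nucleus and inhibit the heterodimer. In an interlocked loop the same activators drive vrille (vri) and Par domain protein 1 (Pdp1), basic leucine zipper factors that repress and activate Clk, and clockwork orange (cwo), a bHLH repressor that acts at E-boxes. Both vri and Pdp1 also act in development outside the clock. The gene cu encodes the fly Nocturnin, related to a vertebrate enzyme whose level cycles with the day. D1 is a chromosomal protein with AT hooks, short segments that contact the minor groove of A/T-rich DNA.

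Sequences at some of the peaks are shown here, read from the NCBI sequence of the Release 6 assembly in the direction of the gene's transcription. Each runs 60 bases to either side of the summit, except where a UTR was cut off, and capitals mark uninterrupted runs of at least 6 A or T bases. The first is upstream of cu and the second in an intron of cu. The next 3 lie upstream of and in the first part of vri, and a pair from introns of Pdp1 follows. The last is the highest pooled peak of tim, which is below the IDR set.
cu upstream peak (chr3R:11197286-11197356, plus strand): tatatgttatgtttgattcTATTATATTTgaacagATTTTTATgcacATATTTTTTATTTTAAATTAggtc
cu intron peak (chr3R:11201886-11202006, plus strand): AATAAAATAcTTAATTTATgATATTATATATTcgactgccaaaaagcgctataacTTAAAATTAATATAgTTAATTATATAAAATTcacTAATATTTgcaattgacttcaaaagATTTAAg
vri upstream peak (chr2L:5287698-5287818, plus strand): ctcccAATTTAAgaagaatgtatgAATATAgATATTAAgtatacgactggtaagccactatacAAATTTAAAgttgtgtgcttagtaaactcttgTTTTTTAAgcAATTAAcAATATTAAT
vri intron peak, rank 2081 (chr2L:5290051-5290171, plus strand): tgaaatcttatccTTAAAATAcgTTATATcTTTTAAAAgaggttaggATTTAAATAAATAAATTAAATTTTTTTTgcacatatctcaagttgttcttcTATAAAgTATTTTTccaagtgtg
vri intron peak, rank 244 (chr2L:5292694-5292814, plus strand): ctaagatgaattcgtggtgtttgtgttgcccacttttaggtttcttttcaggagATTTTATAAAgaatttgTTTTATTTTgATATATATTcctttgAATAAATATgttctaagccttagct
Pdp1 intron peak, rank 1281 (chr3L:7837457-7837577, minus strand): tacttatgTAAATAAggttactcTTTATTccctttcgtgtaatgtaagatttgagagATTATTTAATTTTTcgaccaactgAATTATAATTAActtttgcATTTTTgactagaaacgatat
Pdp1 intron peak, rank 3069 (chr3L:7861908-7862028, minus strand): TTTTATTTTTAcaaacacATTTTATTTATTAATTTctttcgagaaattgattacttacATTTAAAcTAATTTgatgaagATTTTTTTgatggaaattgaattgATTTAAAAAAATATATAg
tim intron peak (chr2L:3505543-3505663, minus strand): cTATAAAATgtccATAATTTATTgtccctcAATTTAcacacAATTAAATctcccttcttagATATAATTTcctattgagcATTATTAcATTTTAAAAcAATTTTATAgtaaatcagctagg

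The 14 IDR peaks were shared unequally: 7 lay in the window of Pdp1, 5 in that of vri and 2 in that of cu, and per, tim, Clk, cyc and cwo had none. Thus 3 of the 8 genes had an IDR summit in the window, against 27.3% of all protein-coding genes. Shares of all genes are not matched for length: the 8 genes spanned 2169 to 55912 bp, against a median of 2166 bp. Among genes with a window within 20% of the length, the median number of IDR summits was 1 for vri and Pdp1 and 0 for cu. For the 5 genes without an IDR summit, 54.9% to 78.7% of such genes also had none. The pooled list, which reaches far below the IDR set, had 74 summits in the windows of 5 genes: 45 at Pdp1, 15 at vri, 6 each at cu and cwo, and 2 at tim. Of all protein-coding genes, 57.2% had a pooled summit in the window. The windows of per and cyc held no entry of any of the 4 lists, as did those of 33.8% of all protein-coding genes. The window of Clk held only 5 low entries of replicate 1, of which 1 lay in the gene.

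**Figure D1:**
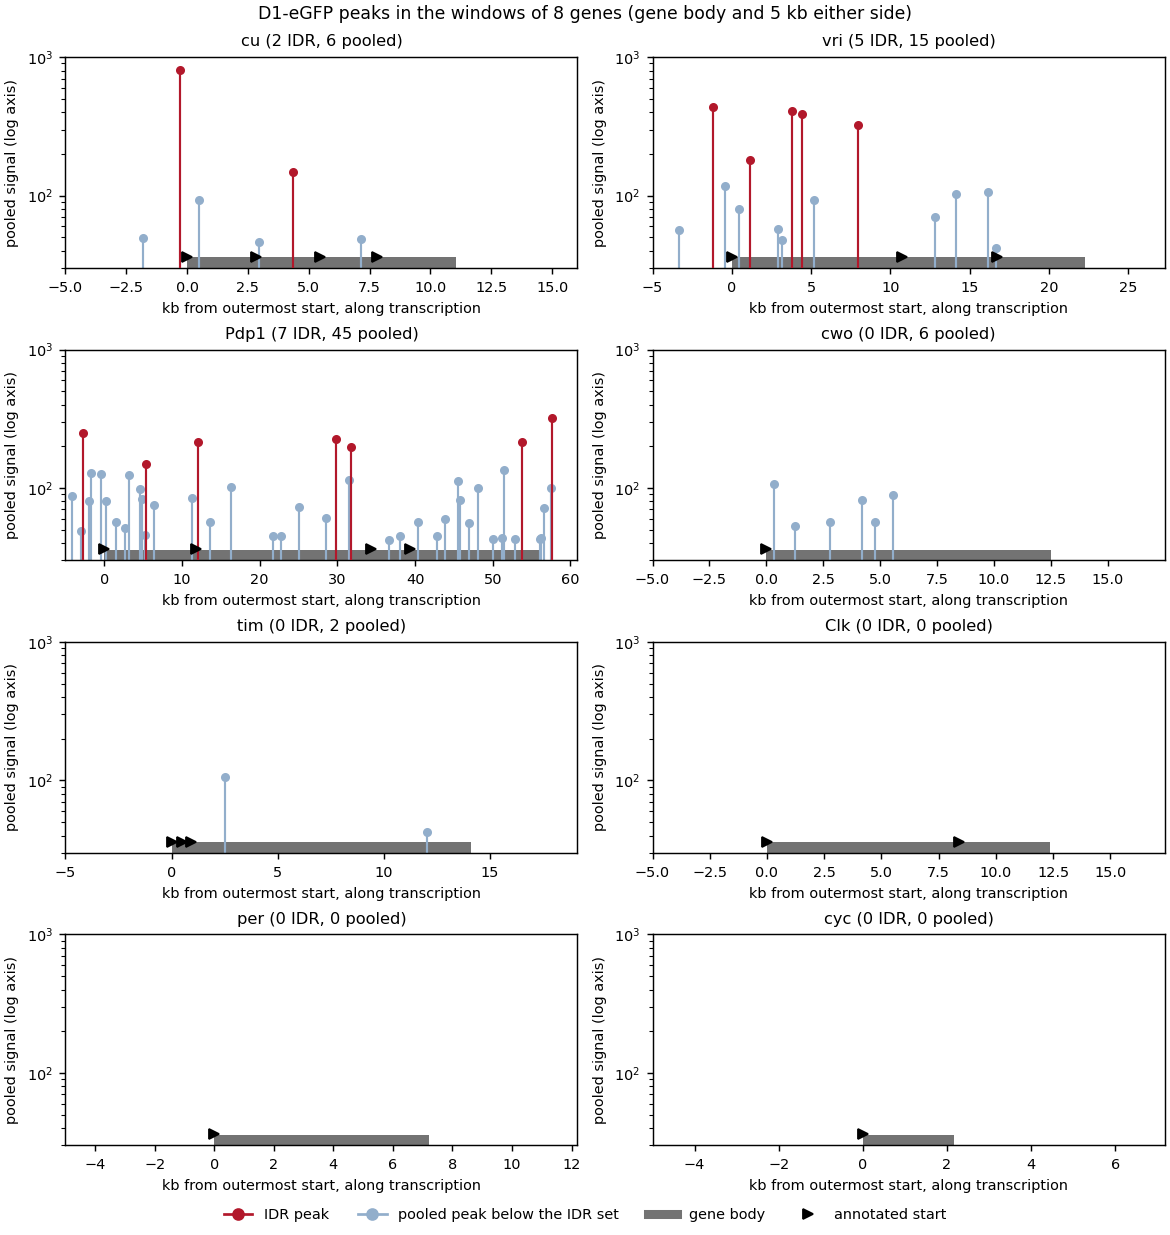
Pooled signal (log axis) of each pooled peak in the 8 gene windows, by distance in kb from the outermost annotated start along the direction of transcription; red marks IDR peaks, blue marks pooled peaks below the IDR set, grey bars the gene bodies and arrowheads the annotated starts. IDR peaks stand at cu, vri and Pdp1, cwo and tim have weaker peaks only, and the panels of Clk, per and cyc are empty.

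The highest peak was upstream of cu. The gene lies on 3R from 11197592 to 11208633, on the plus strand, and has 4 annotated starts. The peak spanned 11197230 to 11197438, with its summit 296 bp before the first of these starts, which serves transcript cu-RF. Its pooled signal was 801, rank 19 of 30000, and the replicates gave 416 (rank 12) and 379 (rank 28) in their own lists. In both replicates it was thus among the highest peaks of its list, and the summits lay 26 and 3 bp from the pooled one. The peak was listed at 209 bp. The other 13 IDR peaks all had the same listed width, 420 bp, so widths are not read here as the extent of binding. The 200 bp around the summit were 76.0% A or T, and the longest run of A or T was 20 bp, seen in the first sequence above.

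The other IDR peak of cu lay in an intron, 1086 bp before the start of cu-RD, with a summit at 11201946. Its pooled signal of 148 (rank 3117) was close to the lowest of the IDR set, 142. Replicate 1 gave 93.8 (rank 1876) and replicate 2 gave 55.4 (rank 7415), a log2 difference (replicate 2 less replicate 1) of -0.76, the lowest among the 14 peaks. Its 200 bp window was 78.0% A or T with a run of 18 bp. The 4 pooled peaks of cu below the IDR set had signals of 46.0 to 93.3. One of them lay 145 bp after the start shared by cu-RE, cu-RG and cu-RH, with a signal of 46.0 (rank 25709), near the lowest value of the pooled list, 41.1. Of the 1306 other protein-coding genes with a window within 20% of the length of that of cu, 16.9% had at least as many IDR summits.

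Around vri the IDR peaks were gathered at the 5′ end of the gene. The gene lies on 2L from 5288944 to 5311223, on the plus strand, with 3 annotated starts. The highest of its peaks had its summit at 5287758, 1186 bp upstream of the first start, with a pooled signal of 433 (rank 205), and the replicates gave 227 (rank 179) and 200 (rank 298). This summit was nearest to a non-coding gene, 90 bp before the start of lncRNA:CR44742, and inside lncRNA:CR44743 on the minus strand, so which of these genes it belongs to cannot be told apart. The next lay in the vri gene body, in an intron, 3810 and 4431 bp after the first start. Their pooled signals were 409 and 389. At the first of this pair the replicates gave 206 and 207, and at the second 221 and 168. These summits were 621 bp apart, so that the 420 bp peaks did not overlap.

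Another vri peak, 2772 bp before the start of vri-RC, had a pooled signal of 322 and replicate signals of 161 and 164. It was also 1053 bp after the start of lncRNA:CR45730, a non-coding gene inside vri. The remaining one, 1167 bp after the first start, had a pooled signal of 181 and replicate signals of 82.9 and 90.4. It held the longest A/T run of all 14 peaks, 28 bp, in the sequence shown for rank 2081. All 5 summits lay between 1186 bp before and 7.931 kb after the first start. Around the start used by vri-RA, vri-RD and vri-RF the nearest IDR summit was 8775 bp away, and a pooled peak 77 bp before that start had a signal of 41.6 (rank 29547). No IDR summit lay within 500 bp of a start of vri itself, although pooled peaks below the IDR set lay 448 bp before the first start (signal 117) and 429 bp after it (80.5). The peak of signal 117 also lay inside lncRNA:CR44743, 171 bp after the start of that gene. Of 604 other genes with a window within 20% of the length of that of vri, 3.64% had at least 5 IDR summits, and the median was 1.

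Pdp1 had the most peaks, and they were spread over the whole gene at moderate signal. The gene lies on 3L from 7811458 to 7867369, on the minus strand, with 4 starts and a length of 55912 bp against a median of 2166 bp over protein-coding genes. Its 7 IDR peaks had a median pooled signal of 215, against 389 for the 5 of vri and 201 for the whole IDR set. The one at an own start had its summit at 7855323, 225 bp after the start shared by 7 of the 13 transcripts, with a pooled signal of 214 (rank 1461). The replicates gave 94.8 and 117 there. By the pooled signal at the start the nearest genes were JIL-1, which encodes a histone kinase, just above and CG13032 just below, each also at 214, among 1180 protein-coding genes with an IDR summit within 500 bp of a start. For cu, with 12 genes higher, the neighbours were the small heat shock gene Hsp27 (831) and Tina-1 (765). Likeness here is the rank of 1 value in 1 list.

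The highest peak in the Pdp1 window did not lie in Pdp1. Its summit at 7809701 was inside CG32369, 124 bp after a start of that gene, with a pooled signal of 321 (rank 515). Replicate 1 gave 121 and replicate 2 gave 208, the widest upward difference among the 14 peaks, 0.78 on the log2 scale. A peak of pooled signal 251 at 7870127 lay in an intron of CG32365, 1085 bp after its start and 2758 bp upstream of the outermost start of Pdp1, with 96.7 in replicate 1 and 149 in replicate 2. The other 5 peaks were in the body of Pdp1. At 7837517 the pooled signal was 226 and the replicates gave 95.3 and 132. In the 3′ UTR of Pdp1, at 7813625, it was 215, with 111 and 119 in the replicates. Intron peaks at 7835591 and 7861968 had 197 and 149. The weaker of this pair had 80.4 in replicate 1 and 62.5 in replicate 2, and lay in the sequence richest in A and T of the 14, at 79.5%.

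Below the IDR set Pdp1 held 38 further pooled peaks, with signals of 41.8 to 136 and a median of 66.4, of which 24 lay in introns and 1 in a coding exon. The outermost start, used by Pdp1-RF and Pdp1-RO, had pooled peaks on both sides, 370 bp before it (signal 127) and 262 bp after it (80.8). For the upstream one the replicates differed more than at any of the 14 IDR peaks, with 96.3 (rank 1776) in replicate 1 and 39.6 (rank 14485) in replicate 2. The density of pooled summits was 6.83 per 10 kb at Pdp1, 4.65 at vri, 2.85 at cu, 2.67 at cwo and 0.829 at tim, against 2.24 over the 6 chromosomes. The replicate lists gave 7.43 and 6.52 at Pdp1, 4.65 and 4.34 at vri, 2.38 and 2.38 at cu, 1.78 and 3.11 at cwo, and 0.829 and 0.414 at tim. Clk, without a pooled summit, had 2.24 in replicate 1, above cwo and tim, and 0.0 in replicate 2. Pdp1 and vri kept their places in both replicates, whereas the order of cu, cwo, tim and Clk differed between them. Of the 229 other genes with a window within 20% of the length of that of Pdp1, 3.93% had at least 7 IDR summits and 5.24% at least as many pooled ones.

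**Figure D2:**
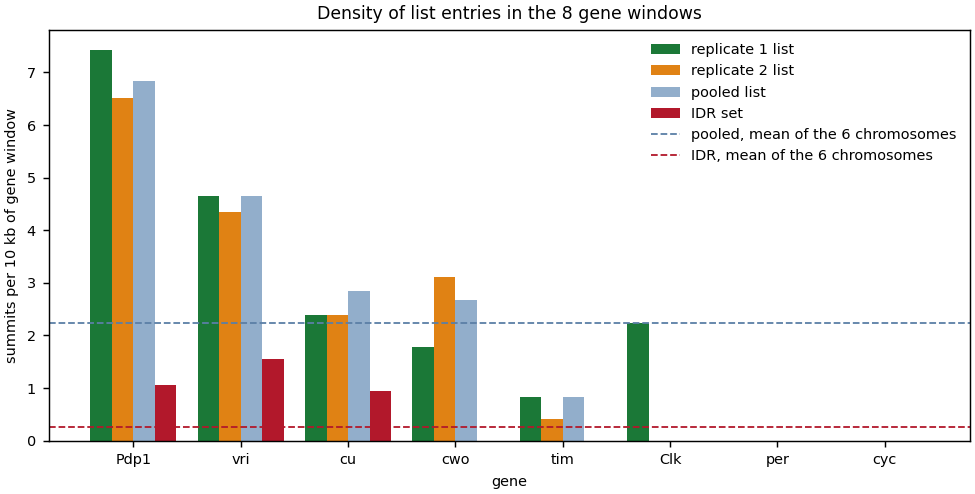
Summits per 10 kb of gene window in the lists of replicate 1, replicate 2 and both pooled and in the IDR set, for each gene, with dashed lines for the mean density of the pooled list and the IDR set over the 6 chromosomes. Pdp1, vri and cu exceed the pooled mean of 2.24 per 10 kb in every list of 30000, cu by the least (2.38 in each replicate), cwo in the pooled list and replicate 2, and per and cyc have no bar.

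The replicates placed the summits closer together at cu and vri than at most peaks of the Pdp1 window. Each IDR peak was overlapped by an entry of both replicate lists, over at least 72.6% of its length in replicate 1 and 77.5% in replicate 2, although the authors took the IDR set from those same lists. Summits differed from the pooled ones by a median of 15.5 bp in replicate 1 (largest 110 bp) and 5.5 bp in replicate 2 (largest 36 bp). The pooled list was itself made from both replicates. In the Pdp1 window, replicate 1 was 54 to 110 bp off at 7809701, 7813625, 7835591, 7837517 and 7861968. There replicate 2 was at most 10 bp off. At cu and vri replicate 1 was at most 26 bp off. All 14 were among the 3388 highest entries of replicate 1 and 12 among those of replicate 2. The exceptions in replicate 2 were the intron peak of cu (rank 7415) and the Pdp1 peak at 7861968 (rank 5817). The log2 difference between replicates had a mean of 0.07 and an SD of 0.42 over the 14 peaks, against a median of 0.16 and an SD of 0.55 over 3351 IDR peaks with an entry in both lists. By gene window, replicate 2 was higher at 6 of 7 peaks of Pdp1, 3 of 5 of vri and 0 of 2 of cu. Of those in the Pdp1 window, 2 lay in CG32369 and CG32365. Since the median over the 3351 peaks was above 0, replicate 2 was higher at most IDR peaks as well. Counted among the 3388 highest peaks of each replicate's own list, Pdp1 had 7.5 ± 0.707 (SD, n = 2), vri 5 ± 0 (SD, n = 2) and cu 1.5 ± 0.707 (SD, n = 2), and the other 5 genes had 0 in both.

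**Figure D3:**
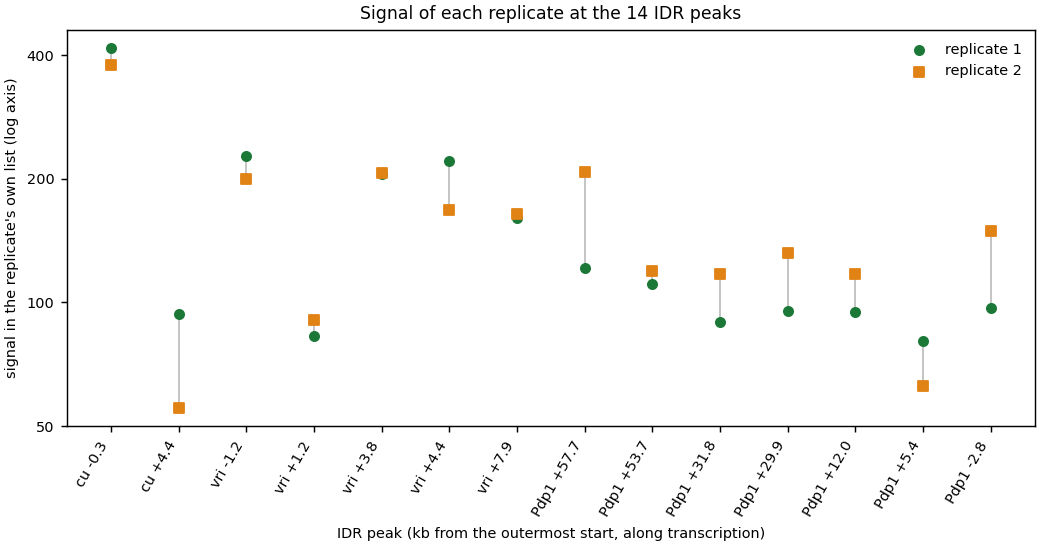
Signal of replicate 1 (green circles) and replicate 2 (orange squares) at each of the 14 IDR peaks, on a log axis, each from its own list; peaks are named by gene and kb from the outermost start. The upstream peak of cu is highest in both replicates (416 and 379). In the Pdp1 window 6 of 7 peaks are higher in replicate 2, as are most IDR peaks with an entry in both lists.

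The core loop genes had weak peaks or none. At tim, on 2L from 3493986 to 3508119 on the minus strand, the higher of 2 pooled peaks lay in an intron at 3505603, 1615 bp after the nearest of its 3 starts. Its pooled signal was 106 (rank 5939), with 37.5 (rank 10926) in replicate 1 and 58.4 (rank 6663) in replicate 2. Its 200 bp window was 77.5% A or T with a run of 26 bp, so that base composition there was like that of the intron peak of cu, at 78.0%. Of the 984 other genes with a window of similar length (within 20%), 54.9% had no IDR summit.

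At cwo, on 3R from 10388258 to 10400752 on the plus strand, all 6 pooled summits lay in the first 5.58 kb of the gene. The highest, 332 bp after its only start, had a pooled signal of 107 (rank 5773), with 54.5 in replicate 1 and 64.9 in replicate 2. No entry of the pooled list lay between the last of these summits and the far edge of the window. Of 1106 genes of similar window length 56.9% had no IDR summit.

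Clk, on 3L from 7763233 to 7775603 on the minus strand, had no pooled summit and no entry of replicate 2. The 5 entries of replicate 1 had signals of 20.6 to 27.4 and ranks of 19009 to 29115, close to the lowest value of that list, 20.2. Only 1 of them lay in the body of Clk. The others lay 230 and 448 bp before the start of Hn or in the 3′ UTR of CG32369. The first pooled summit outside the window was 5891 bp upstream of the gene, with a signal of 87.5. Of 1118 genes of similar window length 57.2% had no IDR summit, and 22.6% had no pooled one.

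The window of per, on X from 2685580 to 2692780 on the plus strand, was empty in every list. The pooled entry nearest to the gene lay 5905 bp upstream of it, just outside the limit of 5 kb, with a signal of 86.1. The nearest IDR peak lay 11105 bp downstream, nearest to the start of Ugalt, a UDP-galactose transporter gene, and had a signal of 919, rank 7 of the pooled list. One of the highest peaks of the genome thus stood close to per without any entry at the gene. Of 2555 genes of similar window length, 67.6% had no IDR summit and 29.3% no entry of any list. The window of cyc, on 3L from 19813770 to 19815938 on the minus strand, was also empty. Its nearest entry, in replicate 1, lay 19225 bp from the gene near SREBP, with a signal of 176 and 320 in the pooled list. Of 10214 genes of similar window length, 78.7% had no IDR summit and 39.5% no entry of any list. At the limit of the windows, the outermost pooled summit inside that of Pdp1 lay 4123 bp from the gene (signal 88.0) and the first outside it 5308 bp from the gene (52.9).

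Within 500 bp of an own start, 2 of the 8 genes, cu and Pdp1, had an IDR summit, against 8.46% of all protein-coding genes. Each of this pair has 4 annotated starts, and Pdp1 is a long gene. The share of all genes is matched neither for length nor for number of starts, so the values are not alike. Of the 14 IDR summits, 9 lay in introns, 4 within 500 bp of a start of some gene and 1 in a 3′ UTR. Introns thus held 64.3% of the 14, against 39.0% of all IDR peaks, promoters 28.6% against 37.5%, and intergenic sequence 0 of the 14 against 20.2%. The 8 windows were drawn around gene bodies, whereas the whole set also covers sequence far from genes. The other 2 summits of that class of 4 were those at lncRNA:CR44742 and CG32369. Among all 74 pooled summits 47 lay in introns, 15 within 500 bp of a start, 4 in intergenic sequence, 4 in 3′ UTRs, 3 in 5′ UTRs and 1 in a coding exon. Their intron share was 63.5%, against 47.9% of all 30000 pooled peaks, and their promoter share 20.3% against 21.2%.

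Base composition, a measure that did not choose the genes, was then read at the 14 peaks. Their 200 bp windows averaged 69.8% A or T (SD 6.74, 14 peaks), against 66.6% (SD 6.89) over all IDR peaks. At the peaks in the gene windows that were among the 3388 highest of a replicate's list, the mean was 68.5% ± 1.64 (SD over replicates, n = 2). The cu peaks averaged 77.0%, those of vri 69.8% and those of Pdp1 67.8%. The 60 weaker pooled peaks in the windows averaged 62.0%, against 62.1% over all 30000 pooled peaks. The longest A/T run averaged 15.7 bp at the 14 peaks and 14.3 bp over the IDR set. AATAT, a short word repeated in satellite DNA bound by D1, occurred on either strand in 13 of 14 windows, the exception being the CG32369 start, and in 75.0% of all IDR windows. In the 21 bp at the summit AT content was 76.9% at the 14 peaks and 68.5% over the IDR set.

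**Figure D4:**
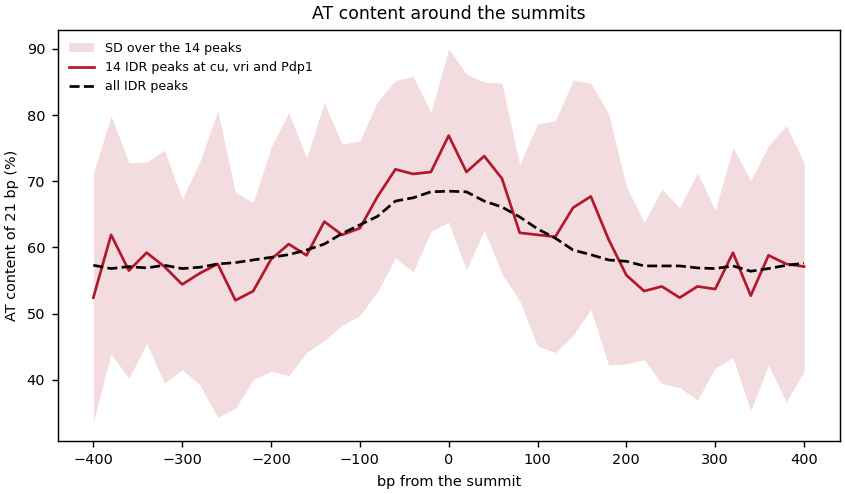
AT content in 21 bp bins by distance from the summit, as the mean of the 14 IDR peaks at cu, vri and Pdp1 (red, with the SD over peaks shaded) and the mean of all 3388 IDR peaks (dashed). Both curves are highest at the summit, at 76.9% and 68.5%, and the shaded SD of the 14 peaks contains the dashed curve throughout.

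The windows of per, cyc and Clk, which held no pooled summit, differed in AT content. Over 200 bp tiles the window of per averaged 46.6% A or T, and 4 of its 86 tiles reached 65%, against 57.5% and 23.3% of tiles over the 6 chromosomes outside the centromere-proximal segments. The window of cyc averaged 54.1%. That of Clk did not share this, with a mean of 58.9% and 32 of 112 tiles at 65% or more, close to cu (58.5%, 30 of 105). None of those 32 tiles of Clk lay within 200 bp of a pooled summit, and neither did the 12 of cyc or the 4 of per. At Pdp1 it was 41 of 140 such tiles (29.3%), at vri 11 of 52 (21.2%), at cu 4 of 30 (13.3%), at cwo 3 of 24 (12.5%) and at tim 2 of 25 (8.0%), against 14.1% over the chromosomes. Tiles with less AT were near a pooled summit in 21.6% of cases at Pdp1, 16.5% at vri, 10.7% at cu, 10.1% at cwo and 2.08% at tim. Over the chromosomes it was 8.03%. The share was thus above that of the chromosomes for both classes of tile at Pdp1 and vri. What part AT content has in the difference between genes was not tested, and adjacent tiles share peaks.

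**Figure D5:**
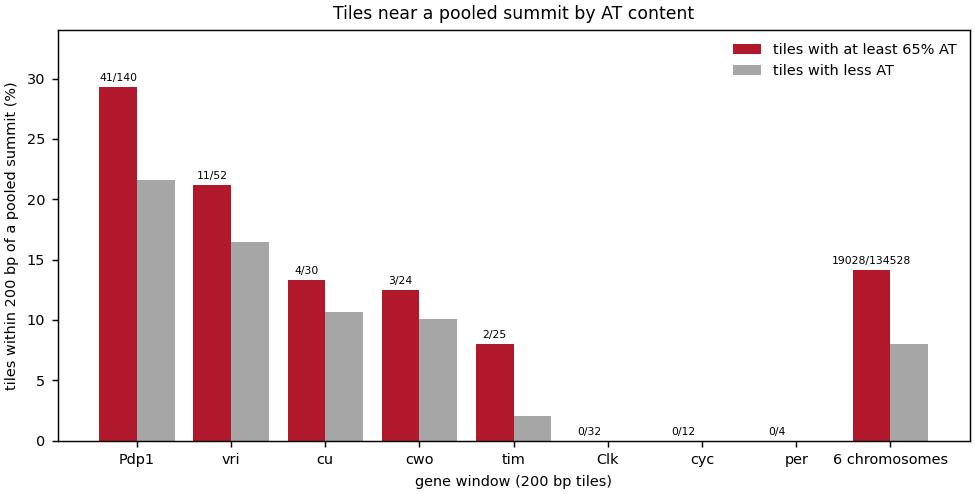
Share of 200 bp tiles within 200 bp of a pooled summit, for tiles with at least 65% AT (red, with counts above the bars) and tiles with less AT (grey), in each gene window and, at the right, over the 6 chromosomes outside centromere-proximal segments. Clk has 32 A/T-rich tiles and none near a summit, whereas Pdp1 has 41 of 140.

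The E-box, the DNA word bound by Clock and Cycle, was then located, searched as CACGTG, which reads alike on both strands. For per and tim, which lack IDR peaks, the site nearest to a start is shown, and for Pdp1 the site at the start with an IDR peak. The E-box is in capitals. The start meant for tim serves tim-RO alone, and the site lies upstream of the start shared by 6 other tim transcripts.
per E-box, 527 bp before the start (chrX:2685023-2685082, plus strand): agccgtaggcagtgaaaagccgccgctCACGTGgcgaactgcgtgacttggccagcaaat
tim E-box, 184 bp after a start (chr2L:3507407-3507432, minus strand): gttgtgattaCACGTGagccgatttc
Pdp1 E-box, 185 bp after a start (chr3L:7855350-7855375, minus strand): aaacagaaagCACGTGtcactgccaa

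The windows held 52 such E-boxes in 217.6 kb: 15 at cwo, 14 at Pdp1, 11 at per, 4 at vri and 2 each at cu, tim, Clk and cyc. Of the 52, 3 lay within 100 bp of a pooled summit and 1 within 100 bp of an IDR summit. That one is the Pdp1 site shown above, 40 bp from the summit at 7855323, with entries of replicate 1 at 47 bp and of replicate 2 at 76 bp. The per site 527 bp before its start was 5262 bp from the nearest entry of any list. The tim site shown was 1813 bp from its nearest entry. The 15 of cwo were at least 5501 bp from an IDR summit. However, 1 of them was 57 bp from a pooled summit and 56 bp from an entry of replicate 2. One of the 14 IDR windows of 200 bp held the word, and 50 of all 3388 did (1.48%), beside 1.98% of all pooled peaks and 2.44% of all 200 bp tiles outside the centromere-proximal segments. Promoter windows of protein-coding genes held it in 4.2%, but these were 300 bp long. TTATGTAA, a form of the site shared by the Vrille and Pdp1 proteins, occurred 25 times on either strand, 6 times at vri, 7 at Pdp1 and 5 at Clk. A site in the Pdp1 intron lay 54 bp from the summit at 7837517, and is part of the sequence shown for that peak. This word was in 2.66% of all IDR windows, 1.88% of pooled ones, 1.36% of the tiles and 2.15% of the longer promoter windows. These are matches of letters and not measured sites of the clock proteins.

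A further 25 genes with roles around the clock, listed with earlier results of these data known, also included genes with and without peaks. An IDR summit lay in the window of 10 of the 25 (40.0%), against 27.3% of all protein-coding genes, and within 500 bp of an own start in 5 of the 25, against 8.46%. Their windows ran from 10.7 to 123.7 kb. Among genes with a window within 20% of the length of each, the shares averaged 41.0% in the window and 15.2% at a start, so the count in the window was close to that of genes of similar length. The 5 with a summit at a start were cry, sgg, norpA, kay and Eip75B. The blue light receptor gene cry had a summit 216 bp before a start (signal 292, rank 664). The kinase gene sgg, whose product phosphorylates Timeless, had one 169 bp before a start (295). At norpA, a phospholipase C gene of light input, it lay 270 bp after a start (251), at the Fos gene kay 199 bp after a start (152), and at the nuclear receptor gene Eip75B 87 bp after a start (266). The neuropeptide gene Pdf, the main signal between clock neurons, and slmb, which encodes the F-box protein that targets Period, had no entry of any list in the window. They were among 4 of the 25 genes without an entry, against 33.8% of all protein-coding genes. For dbt (annotated as dco), the kinase gene of Period, 1 IDR summit of signal 145 lay in the window but none within 500 bp of a start.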

How the data were processed

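ChIP-seq of D1-eGFP in whole pupae was represented by 4 deposited peak lists, on dm6 per the labels. Per the deposited text notes, the authors called peaks against a control, separately by replicate and on the pooled alignments, and took the IDR set from these. The sources used here do not give the aligner, peak caller or IDR threshold. Each deposited peak has a signal and a -log10 q value made by the authors. The -log10 q values are tied at 3.66 for 2286 IDR peaks, so the deposited signal was used for ranks. Summits, the 1-based sum of start and offset, were placed on the Ensembl release 115 annotation and the NCBI Release 6 sequence. A summit within 500 bp of a start was classed as promoter, and otherwise by exon part before intron. Centromere-proximal segments were X beyond 22 Mb, 3R before 4 Mb, 3L beyond 23 Mb, 2R before 6 Mb and 2L beyond 22 Mb.

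With 1 group of 2 replicates and chosen genes, no test was made, and values are set beside those of all protein-coding genes. The genes, lists and words were chosen with earlier results of these data known. The rule for named genes covered all 8 genes with every IDR summit, the highest pooled peak of a gene without one, genes at those summits, neighbours in promoter signal, and other clock genes with an IDR summit at a start. Genes nearest to the windows, and Pdf, slmb, dbt, nmo, tws and jet, were named after their values were seen. The symbols dbt and Nlf-1 were matched through RefSeq synonyms to dco and Mid1. Tiles, classes of all peaks and the comparison with genes of similar window length were also added after the data were seen. Window counts and promoter assignment were checked on simulated summits. Python 3.11.15, NumPy 2.4.6 and pandas 2.3.3 were used.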

Additional observations from a re-analysis of the deposited data

How the results depend on the processing

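Counts summed over the 8 genes moved by less than 1.5 times under all settings tried, except that with starts counted within 250 bp, 1 gene in place of 2 had an IDR summit near a start, since that of cu lies at 296 bp. IDR summits numbered 10 in gene bodies alone and 10 in the 1694 highest of the set, and 13 to 15 when 1 replicate's own 3388 highest peaks were used. By gene, cu had 1 in place of 2 among the 1694 highest and without replicate 1, whose absence removes the intron peak, vri had 4 to 5 and Pdp1 5 to 8. Pooled summits were 58 in gene bodies, 95 with flanks of 10 kb and 70 to 80 on the replicates' own lists. Genes with a summit near a start were 2 to 2 with either replicate left out. Mean AT content, 69.8% as reported, moved by more than its SD over replicates (1.64) under several settings. It was 68.1% in the 1694 highest, 72.7% in 100 bp windows, 63.5% in 500 bp windows and 67.3% without replicate 1. Without replicate 2 it was 69.7%, within that SD. The mean of all IDR peaks, 66.6%, was not recomputed under these settings. All 14 peaks kept an overlap when 50% cover was required. The upper part of the set and the shorter or longer windows differ by construction. No paired analysis was possible because there is 1 group. Signal values carry no read depth, so counting error is unknown, and 14 peaks in 3 genes limit every mean.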

Other observations

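The word CACGTT, a relative of the E-box, occurred 104 times in the 8 windows on either strand, 29 of them at cwo (12.9 per 10 kb), 22 at vri, 17 at Pdp1 and 11 at tim. Of the 104, 9 lay within 100 bp of a pooled summit and 2 within 100 bp of an IDR summit, both in the Pdp1 window. The word was in 5.25% of all IDR windows, 5.88% of pooled ones and 6.12% of 200 bp tiles, and in 9.7% of the promoter windows, which are longer at 300 bp. TTACGTAA occurred 6 times, and none lay within 100 bp of a pooled summit. TATAAA was in 4 of the 14 IDR windows of the 8 genes and in 39.5% of all IDR windows.

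Among the other clock genes the kinase gene nmo had 8 IDR and 68 pooled summits in a window of 85.1 kb, and Eip75B had 14 and 96 in 123.7 kb. The window of tws, which encodes a phosphatase subunit, held 18 pooled summits in 23.6 kb and no IDR summit. That of jet, which encodes an F-box protein of light response, held 1 pooled summit, and it was an IDR peak of signal 371 that lay more than 500 bp from its starts.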
